A study of Homo sapiens with 12 samples.

Results

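The EGF receptor family and its ligands were followed as 9 genes, namely the receptors EGFR, ERBB2 and ERBB3 and the ligands EGF, TGFA, HBEGF, AREG, EREG and BTC. A gene was taken when a non-control probe of the arrays carried its symbol, which gave 16 of the 34127 probes and 9 of the 25992 gene symbols on the array. RNA was measured on 12 one-color Agilent arrays for HK-2 and RPTEC/TERT1, both lines of human proximal tubular cells (HPTCs). Each is a cultured line of a single origin, made to grow without limit by viral oncogenes (HK-2) or telomerase (RPTEC/TERT1). The culture medium held recombinant EGF at 5 ng/mL for HK-2 and 10 ng/mL for RPTEC/TERT1, so it differed with the line label. Both lines were starved of serum and supplements for 24 h and then kept for 24 h under 1 of 3 conditions. These were no ligand (control), 10 ng/mL IL-1β, a cytokine that drives inflammation, or 500 nM Empa (empagliflozin), which blocks the glucose transporter SGLT2. There were biological duplicates of each condition in each line, hence 6 groups of 2 arrays, and none of the cells was given both agents. A slide held 3 arrays that shared a line and a replicate number, 1 per treatment, and each treated array was compared with the control of its slide (4 slides).

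EGFR and its relatives ERBB2, ERBB3 and ERBB4 are receptor tyrosine kinases that signal as pairs. ERBB2 binds no ligand of its own and is the preferred partner of the others, and ERBB3 has little kinase activity and signals through its partner. EGF, TGF-α, amphiregulin, HB-EGF, betacellulin and epiregulin are made as membrane-bound precursors and are released by proteases, ADAM17 among them, before they bind EGFR. HB-EGF, betacellulin and epiregulin also bind ERBB4. In the kidney, EGF is made mainly by the distal tubule, while EGFR on proximal tubular cells takes part in regeneration after injury and, when its activity persists, in fibrosis.

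The arrays did not group by their line labels. Slide pair A, as it is called here, is the slide of HK-2 replicate 1 with that of RPTEC/TERT1 replicate 2, and slide pair B the slide of HK-2 replicate 2 with that of RPTEC/TERT1 replicate 1. The 2 control arrays correlated with r = 0.984 within pair A and 0.973 within pair B, but with 0.880 between the slides labelled HK-2 and 0.875 between those labelled RPTEC/TERT1, over the 15324 probes that were bright enough everywhere (probes are no independent replicates). The pairs were formed from the data and are not the groups of the study, and a line name refers only to the label. Of 12 proximal tubule markers, 8 were well above background on all 6 arrays of pair A and 6 on all 6 of pair B, with SLC22A6 and HNF4A above background on no array. ANPEP, CDH1 and the thick ascending limb transporter SLC12A1 were above background on the 6 arrays of pair A and on none of pair B. The summed signal of the 4 distal tubule markers, in percent of the 75th percentile of the array, lay between 18.5 and 3228 in control, 16.6 and 87.3 with IL-1β and 12.7 and 3069 with Empa. The sums of the 4 endothelial markers lay between 15.1 and 30.7 in all treatments, while those of 3 leukocyte markers lay between 41.3 and 260.6 in control, 151.8 and 226.3 with IL-1β and 30.1 and 208.8 with Empa. The sums of 3 podocyte markers lay between 48.5 and 87.8 in control, 46.0 and 62.9 with IL-1β and 80.5 and 168.1 with Empa, and those of 4 fibroblast markers between 15.6 and 667.1, 14.7 and 759.5, and 5.94 and 424.9. SLC12A3, AQP2, KDR and PDGFRB were above background on no array. The sums of 12 proximal tubule markers lay between 838.9 and 2521 in control, 590.3 and 2625 with IL-1β and 733.0 and 4639 with Empa, and those of 4 epithelial markers between 3851 and 8734, 3052 and 6514, and 3239 and 10512. With IL-1β 2 of the 9 proximal tubule markers tested and 2 of 4 epithelial markers passed the threshold. All were lower, beside 6.24% of all genes in that direction. These were the endocytic receptor LRP2 (log2 fold change -2.43, adjusted p = 0.000289 from limma), the adhesion molecule EPCAM (-0.97, adjusted p = 0.0272), the phosphate transporter SLC34A1 (adjusted p = 0.00938), which was well above background on only 4 arrays, and CDH1 (adjusted p = 0.00290), measured only in pair A. LRP2 and EPCAM, well above background on 12 arrays, were lower on 4 of 4 slides, beside 22.9% of all genes. The fitted values of PAX8 (0.46), KRT18 (0.17) and ANPEP (0.44, measured only in pair A) were above 0 and did not pass. Those of the remaining tested markers of these lists were below 0. The part of these markers in the results was not tested. In RNA of whole cultures, fewer cells of a type and less RNA per cell cannot be told apart.

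Genes known to respond to IL-1β were higher on all 4 slides. Of 8 known response genes, 7 were tested and 6 rose (CXCL8, CCL2, CCL20, NFKBIA, SOD2 and BIRC3), among them NFKBIA, the inhibitor of NF-κB, by 3.70 and mitochondrial superoxide dismutase SOD2 by 4.33 on the log2 scale (limma, adjusted p = 0.00304 and 0.00650). ICAM1 was higher on 4 of 4 slides with an adjusted p of 0.0684, and TNFAIP3 had no value on 1 array and was not tested. Over all 17843 genes tested, 1756 (9.84%) passed an adjusted p of 0.05 with IL-1β, 643 (3.60%) higher and 1113 (6.24%) lower. With another background correction and quantile normalization the split was 881 higher and 931 lower of 1812. With Empa 1 gene (0.0056%) passed, the dehydrogenase gene DHRS2, which is named here after its value was seen, and 1965 genes had an unadjusted p under 0.05. The difference in effect between the arrays labelled RPTEC/TERT1 and HK-2 passed for 0 genes with IL-1β and 0 with Empa (limma, 309 and 190 genes at an unadjusted p under 0.05).

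EPGN, EREG, AREG and BTC follow each other as protein-coding genes within 486.1 kb of chromosome 4 (GRCh38.p14), and of these EREG, AREG and BTC are members. The 250 bases before the start of EREG, AREG, BTC and HBEGF, the ligands the results turn on, are shown as RefSeq places the starts on GRCh38.p14, 5′ to 3′ on the strand of the gene, at chr4:74364895-74365144 (plus strand), chr4:74444886-74445135 (plus), chr4:74794524-74794773 (minus) and chr5:140346604-140346853 (minus). Capitals mark every match to 5 motifs searched on both strands, namely a κB site, AP-1 (TGANTCA), the cAMP response element CRE (TGACGTCA), the GC box (GGGCGG) and the TATA box (TATAAA).
EREG: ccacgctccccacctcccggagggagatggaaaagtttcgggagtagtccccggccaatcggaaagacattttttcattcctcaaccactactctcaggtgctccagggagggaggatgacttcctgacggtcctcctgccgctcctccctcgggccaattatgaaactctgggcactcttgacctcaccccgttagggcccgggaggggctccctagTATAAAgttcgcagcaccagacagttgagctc
AREG: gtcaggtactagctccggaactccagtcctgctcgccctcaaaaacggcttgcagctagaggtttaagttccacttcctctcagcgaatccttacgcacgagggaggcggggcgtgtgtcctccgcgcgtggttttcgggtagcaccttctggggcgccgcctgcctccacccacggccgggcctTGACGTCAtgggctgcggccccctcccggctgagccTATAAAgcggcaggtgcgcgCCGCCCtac
BTC: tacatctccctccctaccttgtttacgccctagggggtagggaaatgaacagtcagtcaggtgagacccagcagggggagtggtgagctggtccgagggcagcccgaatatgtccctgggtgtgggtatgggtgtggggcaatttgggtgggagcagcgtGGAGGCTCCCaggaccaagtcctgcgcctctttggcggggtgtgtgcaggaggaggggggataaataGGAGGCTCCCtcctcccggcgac
HBEGF: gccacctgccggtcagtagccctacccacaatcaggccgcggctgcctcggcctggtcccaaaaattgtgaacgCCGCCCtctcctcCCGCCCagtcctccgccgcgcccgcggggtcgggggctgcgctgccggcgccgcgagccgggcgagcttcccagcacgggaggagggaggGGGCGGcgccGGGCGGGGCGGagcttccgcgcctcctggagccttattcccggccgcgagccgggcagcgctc

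AREG and EREG each held a TATA box, 29 and 32 bases before the start, and AREG also held a CRE match 65 bases before it. AREG held 1 GC box, 9 bases before the start. BTC held 2 κB matches with the same letters, 90 and 23 bases before its start, and HBEGF held 5 GC boxes, of which those 63 and 58 bases before the start overlap. Of 35116 promoter windows of 300 bases in the same table, which also take in 50 bases after the start, 11.3% held a κB match, 7.71% AP-1, 1.85% CRE, 45.0% a GC box and 11.5% a TATA box. A match describes letters in this window and shows no binding. Of the members, 8 had a promoter entry.

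**Figure D1:**
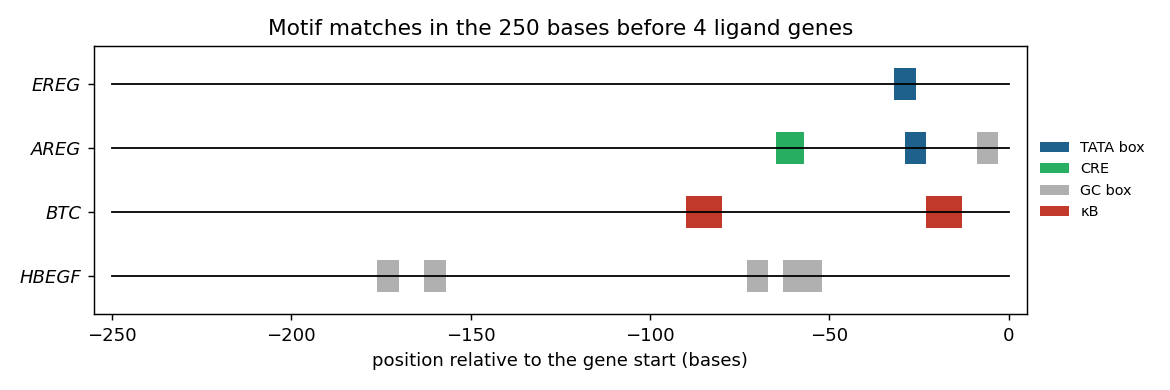
Motif matches in the 250 bases before EREG, AREG, BTC and HBEGF, by position relative to the gene start on the horizontal axis, with each bar as wide as its match. The 2 κB matches of BTC, the CRE of AREG and the 5 GC boxes of HBEGF, of which 2 overlap, can be read off.

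ERBB2, the receptor that binds no ligand of its own, was lower with IL-1β on all 4 slides. Its probe for NM_001005862 lies at chr17:37884829-37884888 on hg19 and is spotted 10 times. Levels are given here as log2 signal relative to the 75th percentile of the array. In pair A the level was 2.27 in control, 0.70 with IL-1β and 2.57 with Empa for HK-2 replicate 1, and 2.54, 1.04 and 2.45 for RPTEC/TERT1 replicate 2. In pair B it was 0.59, 0.09 and 0.38 for HK-2 replicate 2, and 0.45, -0.17 and 0.52 for RPTEC/TERT1 replicate 1. At this probe the control level was thus lower in pair B, and the IL-1β array was the lowest of its slide in each case. The signal with IL-1β was lower by 2.97-fold and 2.84-fold in pair A and by 1.41-fold and 1.53-fold in pair B, and the fit over the 4 slides gave a log2 fold change of -1.05 (SE 0.26, adjusted p = 0.0394 from limma). With pair A alone the log2 fold change was -1.54 (adjusted p = 0.0316) and with pair B alone -0.55 (adjusted p = 0.125). Leaving out 1 array gave -1.27 to -0.82 and kept the call in 4 of 12 cases, namely without either HK-2 Empa array, RPTEC/TERT1 IL-1β replicate 1 or HK-2 IL-1β replicate 2. A fit without the slides as a block, in which the different levels of the pairs enter the error, gave an adjusted p of 1.00. The array's other ERBB2 probe, for ENST00000584014 at chr17:37851136-37851195, was dim and well above background on 9 arrays, with log2 differences with IL-1β of 0.43 (HK-2 replicate 1), -0.61 (HK-2 replicate 2) and -0.14 (RPTEC/TERT1 replicate 1). For RPTEC/TERT1 replicate 2 its control was not well above background, and the signal with IL-1β was at least 1.21-fold higher, so that at this probe both slides of pair A were higher with IL-1β, against the direction of the brighter probe.

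EGFR, the receptor of all 6 ligands studied here, had no common response to IL-1β. The brighter probe, for NM_005228 at chr7:55274841-55274900 (hg19, 10 spots), gave levels of -1.84 in control, -1.60 with IL-1β and -0.49 with Empa for HK-2 replicate 1, and -1.45, -1.66 and -0.84 for RPTEC/TERT1 replicate 2. In pair B the levels were 0.66, 0.69 and 0.35 for HK-2 replicate 2, and 0.52, 0.29 and 0.11 for RPTEC/TERT1 replicate 1. The 6 arrays of pair B lay above the 6 of pair A, and the control mean was 4.71-fold higher. The log2 fold change with IL-1β was -0.04 (SE 0.30, adjusted p = 0.951 from limma). The probe for NM_201283, a shorter transcript variant, at chr7:55224558-55224617 also separated the pairs but in the other direction, with levels between -2.56 and -1.52 in pair A and between -3.88 and -3.26 in pair B, and its IL-1β differences lay between -0.14 and 0.04. The third EGFR probe, for NM_201282, was well above background on 2 arrays.

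ERBB3, the receptor with little kinase activity, was also not changed by IL-1β past the threshold. Its probe for NM_001005915 at chr12:56479217-56479276 gave levels between -1.62 and -1.26 on the 6 arrays of pair A and between -3.56 and -3.02 on those of pair B, without overlap, and the control mean of pair A was 3.67-fold higher. With IL-1β the log2 differences were -0.36 and -0.20 in pair A and -0.55 (HK-2 replicate 2) and 0.07 (RPTEC/TERT1 replicate 1) in pair B, and the fit gave -0.26 (SE 0.15, adjusted p = 0.315 from limma). A second probe, for NM_001982 at chr12:56496160-56496219, also lay higher in pair A (-2.59 to -1.65 against -5.75 to -3.70). With IL-1β it differed by 0.19 and -0.12 in pair A and by -0.69 for RPTEC/TERT1 replicate 1, and HK-2 replicate 2 gave no fold. The remaining probe was well above background on no array.

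HBEGF, the precursor of a ligand that is also the receptor of diphtheria toxin, was higher with IL-1β on 4 of 4 slides, by sizes that differed widely. Its probe for NM_001945 lies at chr5:139713052-139713111 (hg19). In pair A the level was -2.30 in control, -1.83 with IL-1β and -3.22 with Empa for HK-2 replicate 1, and -2.25, -2.02 and -2.12 for RPTEC/TERT1 replicate 2. In pair B it was -2.57, 0.06 and -1.40 for HK-2 replicate 2, and -1.98, 0.29 and -1.26 for RPTEC/TERT1 replicate 1. The control levels of the pairs were alike, with a ratio of their means of 1.00, whereas the IL-1β arrays of pair B lay above all other arrays. The signal was 6.21-fold and 4.82-fold higher in pair B and 1.39-fold and 1.18-fold higher in pair A. The log2 fold change over the 4 slides was 1.40 (SE 0.42, adjusted p = 0.0721 from limma), which did not pass the threshold, and 2.45 (SE 0.16, adjusted p = 0.0234) with pair B alone and 0.35 (adjusted p = 0.627) with pair A alone. The adjusted p over the 4 slides was 0.0449 with normexp and quantile normalization and 0.0375 among genes well above background on all 12 arrays. The difference between the pairs was not tested, since they were formed from the data.

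AREG encodes amphiregulin and lies next to EREG on chromosome 4. Its brighter probe, for NM_001657 at chr4:75320518-75320577 (hg19), gave levels of -2.24 in control, -0.31 with IL-1β and -1.44 with Empa for HK-2 replicate 1, and -1.97, -0.27 and -1.69 for RPTEC/TERT1 replicate 2. In pair B the levels were 2.63, 2.71 and 2.39 for HK-2 replicate 2, and 3.16, 2.47 and 2.88 for RPTEC/TERT1 replicate 1. The control mean was 32.0-fold higher in pair B, and IL-1β raised the signal 3.82-fold and 3.26-fold within the slides of pair A. In pair B the IL-1β signal was 1.05-fold that of control for HK-2 replicate 2 and 1.61-fold lower for RPTEC/TERT1 replicate 1. The fit over the 4 slides gave 0.76 (SE 0.41, adjusted p = 0.273 from limma), with 1.82 (SE 0.23, adjusted p = 0.0241) for pair A alone and -0.31 (adjusted p = 0.447) for pair B alone. The other AREG probe, for the same transcript at chr4:75318293-75318352, agreed in pair A, with 3.20-fold and 3.56-fold higher signals, and in RPTEC/TERT1 replicate 1, where the signal was 1.46-fold lower, but rose 2.55-fold in HK-2 replicate 2. When every probe was tested, its log2 fold change was 1.08 (SE 0.39, adjusted p = 0.122), so the probes disagree on the response of 1 slide.

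EREG, which encodes epiregulin, was measured only in pair B. Its probe for NM_001432 lies at chr4:75254009-75254068 (hg19) and was not well above background on any of the 6 arrays of pair A, while the levels in pair B were 1.16 in control, 3.03 with IL-1β and 1.22 with Empa for HK-2 replicate 2, and 1.78, 2.85 and 1.82 for RPTEC/TERT1 replicate 1. The control signal in pair B was at least 94.2-fold higher than in pair A, with the dim arrays set to the lowest signal well above background or to their own signal where it was higher. With IL-1β it was 3.65-fold and 2.09-fold higher than control on the slides of pair B, which gave a log2 fold change of 1.47 (SE 0.26, adjusted p = 0.0673 from limma) over these 6 arrays. Pair A holds no fold for EREG, and the fit over all 4 slides (-0.85, SE 0.87) rests there on signals not well above background. The treated arrays of pair A lay at the floor of 1 signal unit, and the controls at -4.55 and -6.45.

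BTC, which encodes betacellulin, a ligand of both EGFR and ERBB4, was lower with IL-1β on all 4 slides. Its probe for NM_001729 lies at chr4:75675838-75675897 (hg19). The level was -1.88 in control, -2.93 with IL-1β and -1.28 with Empa for HK-2 replicate 1, and -2.08, -2.82 and -1.77 for RPTEC/TERT1 replicate 2. In pair B it was -3.32, -4.06 and -3.51 for HK-2 replicate 2, and -4.11, -4.66 and -3.85 for RPTEC/TERT1 replicate 1. The 6 arrays of pair A lay above those of pair B, and the IL-1β array was the lowest of every slide. The signal with IL-1β was 2.08-fold and 1.67-fold lower in pair A and 1.66-fold and 1.46-fold lower in pair B, with a log2 fold change of -0.77 (SE 0.19, adjusted p = 0.0407 from limma). With pair A alone it was -0.90 (adjusted p = 0.10) and with pair B alone -0.64 (adjusted p = 0.107). The fold change was -0.58 (adjusted p = 0.108) with quantile normalization, -0.28 (adjusted p = 0.269) with normexp before it and -0.23 (adjusted p = 0.141) in the authors' table, so its size and its call depend on the normalization and the background correction. Leaving out 1 array gave -0.86 to -0.62 and kept the call in 2 of 12 cases, without either HK-2 Empa array.

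TGFA and EGF gave no change past the threshold. TGFA, which encodes TGF-α, had levels of 1.46 in control, 1.45 with IL-1β and 0.70 with Empa for HK-2 replicate 1, and 1.06, 1.54 and 1.11 for RPTEC/TERT1 replicate 2, at its brighter probe for NM_003236 (chr2:70683472-70683531, hg19). In pair B they were 1.58, 0.76 and 0.95 for HK-2 replicate 2, and 0.55, 0.50 and 0.51 for RPTEC/TERT1 replicate 1. The pairs overlapped, and the IL-1β differences ran from -0.82 to 0.48 with a fitted log2 fold change of -0.10 (SE 0.23, adjusted p = 0.821 from limma). The dimmer TGFA probe was well above background on 8 arrays. With IL-1β it was 2.09-fold higher for HK-2 replicate 1, unlike the brighter probe, and 1.33-fold and 1.08-fold lower in pair B. With Empa it was at least 2.33-fold lower for HK-2 replicate 1. In pair B it was 1.10-fold and 1.16-fold higher with Empa, where the brighter probe was lower. It gave no fold for RPTEC/TERT1 replicate 2. The probe of EGF, the ligand after which the family is named, at chr4:110932689-110932748 was not well above background on any of the 12 arrays, so EGF has no measured level and was not tested.

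**Figure D2:**
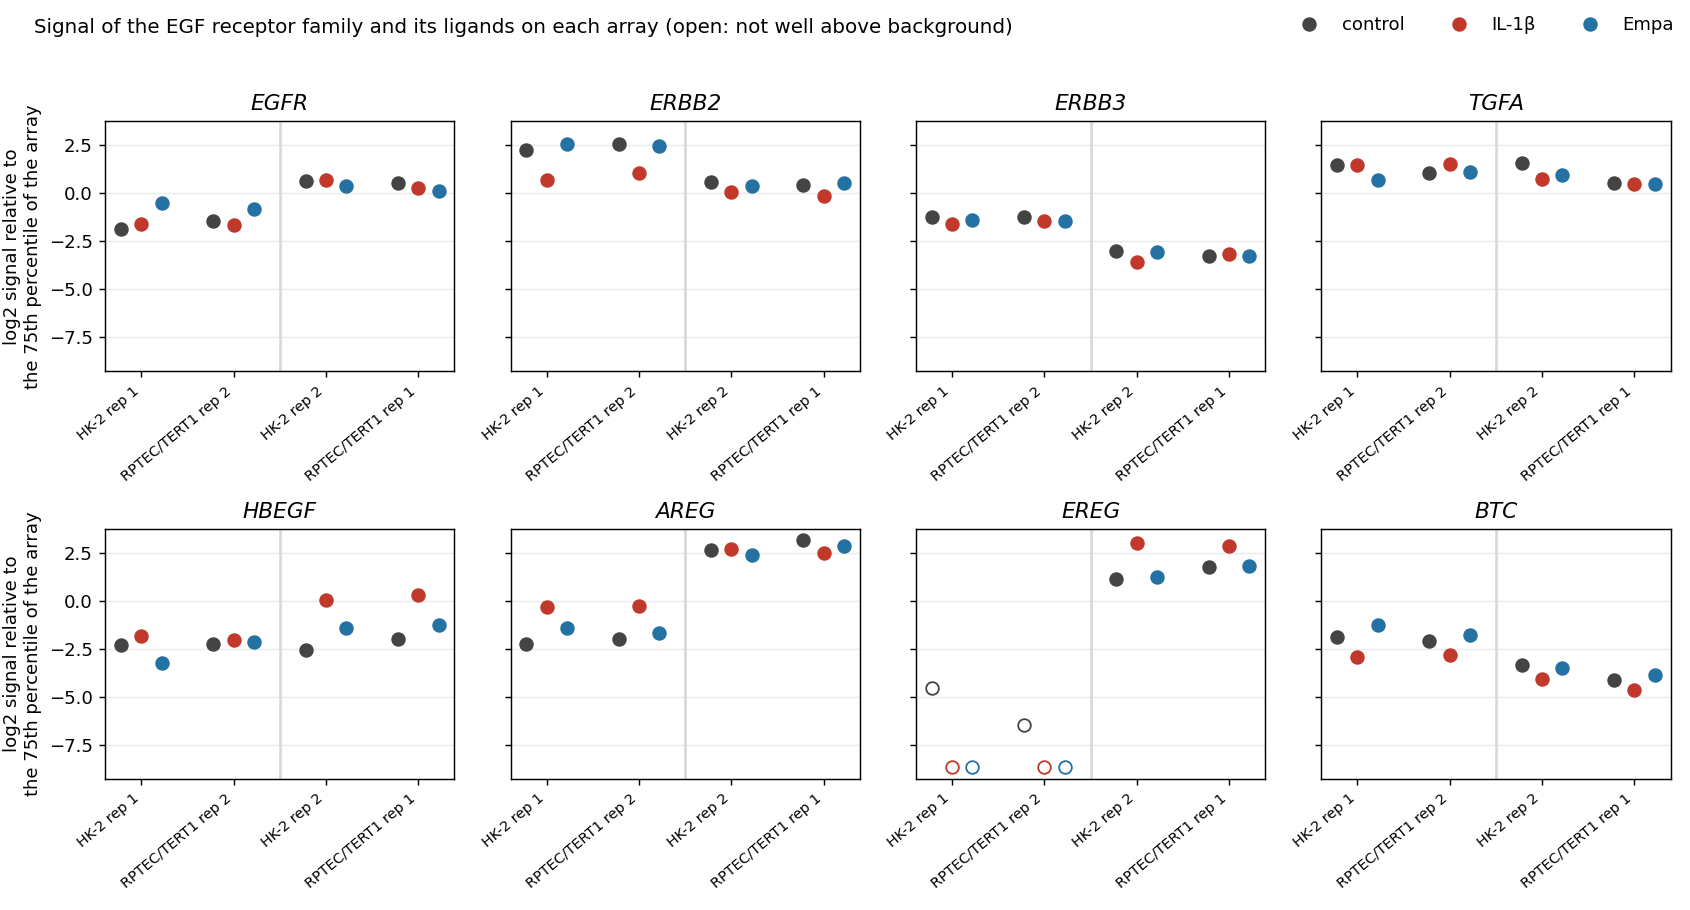
Log2 signal relative to the 75th percentile of the array (vertical axis) for the 8 members tested, on the 4 slides, with 1 point for each control, IL-1β and Empa array and open points where the probe was not well above background. At the tested probes, which are shown, AREG and EREG are high in pair B (right of the grey line), ERBB2, ERBB3 and BTC are higher in pair A, and TGFA and HBEGF overlap between the pairs.

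Of the 8 members tested, 2 (ERBB2 and BTC) passed the threshold with IL-1β, both lower, beside 6.24% of all genes in that direction. The median log2 fold change of the members, EREG at its fitted value, was -0.18 beside -0.10 for all genes tested. The same sign on all 4 slides was found for 3 members (ERBB2, BTC and HBEGF) beside 37.4% of all genes, with 1 of them, HBEGF, higher on all 4 beside 14.5%. With pair A alone AREG rose and ERBB2 fell past the threshold, beside 10.6% of all genes, and EREG also passed there but between signals not above background. With pair B alone HBEGF rose, beside 5.30%. At the tested probes, the levels of EGFR, ERBB2, ERBB3, AREG and BTC, all well above background on 12 arrays, did not overlap between the 6 arrays of pair A and the 6 of pair B, where 29.6% of all genes did not. EREG did not overlap either, but it entered the test through pair B alone and so had to differ. Other probes did not all share this. The dimmer ERBB2 probe, well above background on 9 arrays, overlapped between the pairs, and its control mean was higher in pair B. The EGFR probe for NM_201283 separated the pairs in the other direction. The second probes of ERBB3 and AREG separated them in the same direction as the tested ones.

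With Empa, 0 of the 8 members passed the threshold at the tested probe (limma, adjusted p from 0.52 to 0.98). There, 0 had an unadjusted p under 0.05. When every probe was tested, the dimmer ERBB2 probe had a log2 fold change with Empa of -0.71 (SE 0.25). Its unadjusted p was 0.0208 and its adjusted p 0.415 from limma, and it was well above background on 9 arrays. With either slide pair alone 0 members passed, beside 0.0168% of all genes in pair B and 0% in pair A. At the tested probes ERBB3 alone had the same sign on all 4 slides, with log2 differences of -0.17 to -0.02. Beside it stood 25.2% of all genes (13% lower on all 4). The second ERBB3 probe did not share a sign, with -0.47 and -0.03 in pair A and 0.18 for RPTEC/TERT1 replicate 1. For HK-2 replicate 2 its control was not well above background. EGFR had log2 differences with Empa of 1.36 and 0.61 in pair A and of -0.30 and -0.41 in pair B, with a fitted value of 0.31 (SE 0.30, adjusted p = 0.685). HBEGF differed from control by -0.92 and 0.13 in pair A and by 1.17 and 0.72 in pair B, with a fitted value of 0.28 (SE 0.42, adjusted p = 0.806). The spread between slides was larger than the mean in both genes. EREG was within 0.06 of control on both slides of pair B.

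**Figure D3:**
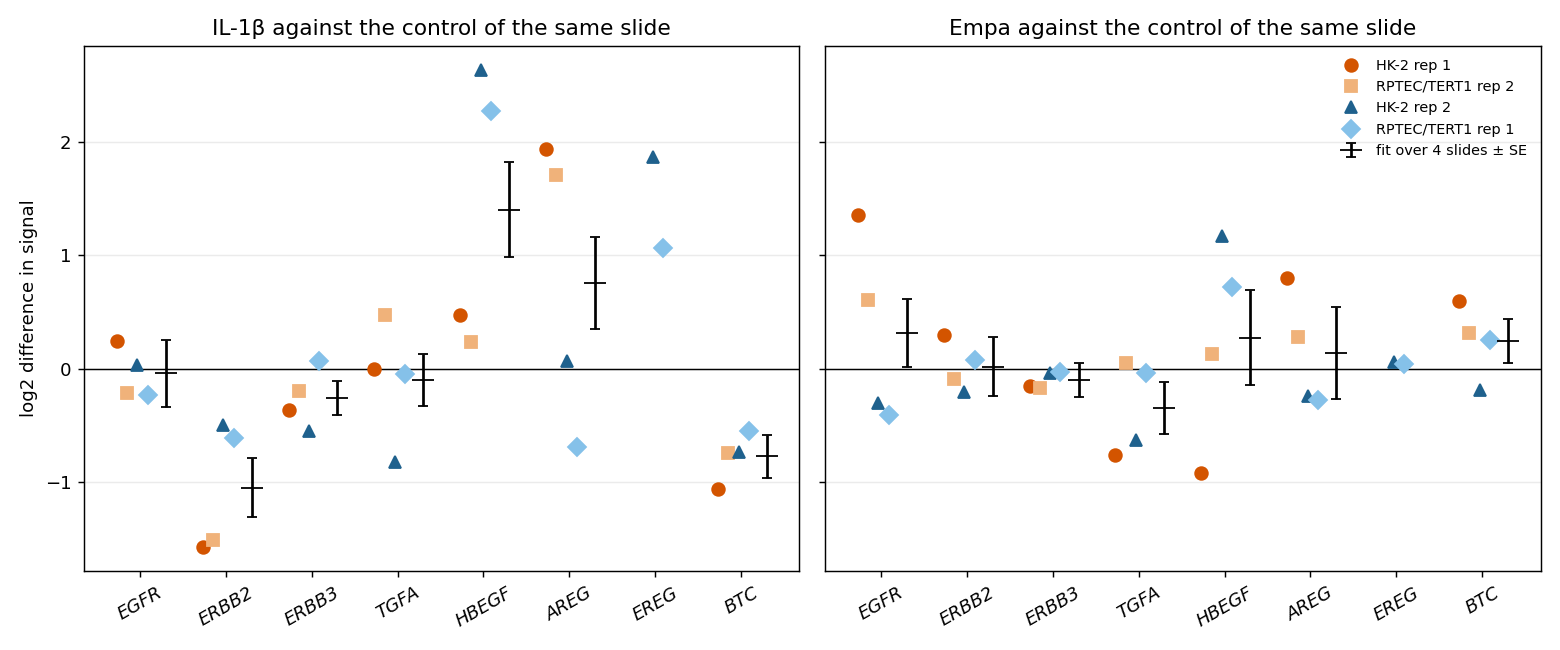
Log2 difference between a treated array and the control of its slide (vertical axis) for the 8 members, with IL-1β on the left and Empa on the right, 1 symbol for each slide and the fit over the 4 slides with its standard error as a black bar. EREG has no bar and only the slides of pair B, and with IL-1β all 4 slides lie below 0 for ERBB2 and BTC and above 0 for HBEGF.

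Set against each other, IL-1β gave a lower signal than Empa for ERBB2 (log2 difference -1.07, SE 0.26, adjusted p = 0.0339 from limma) and BTC (-1.01, SE 0.19, adjusted p = 0.0147), the 2 of 8 members past the threshold, where 2017 of 17843 genes (11.3%) passed, 4.15% higher and 7.16% lower. For BTC this call was kept in 10 of 12 fits that left out 1 array, and for ERBB2 in 3 of 12. Under the other settings the BTC call was kept in 8 and lost in 10. The ERBB2 call was kept in 9 of them and lost in 9. The dimmer ERBB2 probe went the other way when every probe was tested, with a log2 difference of 0.70 (SE 0.25, adjusted p = 0.111 from limma). HBEGF was higher with IL-1β than with Empa by 1.13 (SE 0.42, adjusted p = 0.117), and by 1.51 with pair B alone (adjusted p = 0.0383), where it was the 1 member past the threshold beside 4.44% of all genes. With pair A alone ERBB2, BTC and AREG passed, beside 16.5%. This comparison shares its IL-1β arrays with the one against control.

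Other genes of the pathway were taken from 5 lists. Of the other ERBB receptors and ligands (ERBB4, NRG1, NRG2, NRG3, NRG4 and EPGN), 4 were tested and 0 passed with IL-1β, with a median log2 fold change of -0.51. ERBB4, the remaining receptor of the family and named here after its values were seen, was well above background on the 6 arrays of pair A alone, with log2 differences of -1.50 and -1.95 with IL-1β (-1.73 with pair A alone, adjusted p = 0.0450). Of 7 genes of ligand shedding and trafficking, ADAM17 and its iRhom partners RHBDF1 and RHBDF2 included, 0 passed over the 4 slides, and of 21 adaptors and kinases of the RAS, PI3K and STAT cascades 0 passed, with medians of 0.13 and 0.09. RHBDF2 passed with pair A alone, with differences of 2.36 and 2.51, against 0.25 and -0.03 in pair B. Normexp with quantile normalization called 2 genes of the cascade, NRAS and PTPN11.

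Of 12 receptor inhibitors and genes of receptor degradation, 2 passed with IL-1β, beside 9.84% of all genes. CBLB, a ubiquitin ligase that marks activated receptors for breakdown, fell by 2.01 (SE 0.36, adjusted p = 0.0128 from limma) on the log2 scale, with differences of -2.99 and -2.86 in pair A and -0.93 and -1.25 in pair B. LRIG3, a membrane protein of a family that restrains receptor tyrosine kinases, rose by 0.91 (SE 0.16, adjusted p = 0.0114), by 0.67 to 1.17 on the 4 slides. ERRFI1, the inducible EGFR inhibitor, had a log2 fold change of 0.83 (adjusted p = 0.0500, not below the threshold). With quantile normalization 3 genes of the list passed, ERRFI1 among them, and with normexp before it 5 did (CBLB, ERRFI1, HGS, LRIG3 and PTPRK). The median of the list was 0.15 beside -0.10 for all genes.

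Of 19 genes known to respond to growth factors, 7 passed with IL-1β, 5 higher and 2 lower, beside 9.84% of all genes, and the median log2 fold change was 0.41. DUSP5, a phosphatase that inactivates ERK, rose by 2.35 (SE 0.40, adjusted p = 0.0106 from limma), and FOSL1, an AP-1 subunit, by 1.60 (SE 0.41, adjusted p = 0.0449). IER3, an early response gene that is also an NF-κB target, rose by 1.80 (SE 0.39, adjusted p = 0.0246). The cytokine LIF rose by 1.42 (SE 0.28, adjusted p = 0.0179) and the transcription factor MYC by 0.94 (SE 0.23, adjusted p = 0.0360). All 5 were higher on 4 of 4 slides, and of them DUSP5 and IER3 also passed with pair B alone. EGR1, an immediate early transcription factor, fell by 1.84 (SE 0.37, adjusted p = 0.0200) and was lower on 4 of 4 slides. FOS passed as well with -2.02 (SE 0.31, adjusted p = 0.00732), but its probe was not well above background with IL-1β on any slide and was so on only 1 control array, so the size is not measured. IER3 and LIF of this list are also known as genes that IL-1β induces, and the cause of the changes in the list was not tested. When any 1 array was left out DUSP5 and FOS kept their calls in 12 of 12 fits, LRIG3 in 11, CBLB in 9, LIF in 8, EGR1 and IER3 in 6 each and FOSL1 and MYC in 3 each. With Empa 0 genes of the 5 lists passed.

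**Figure D4:**
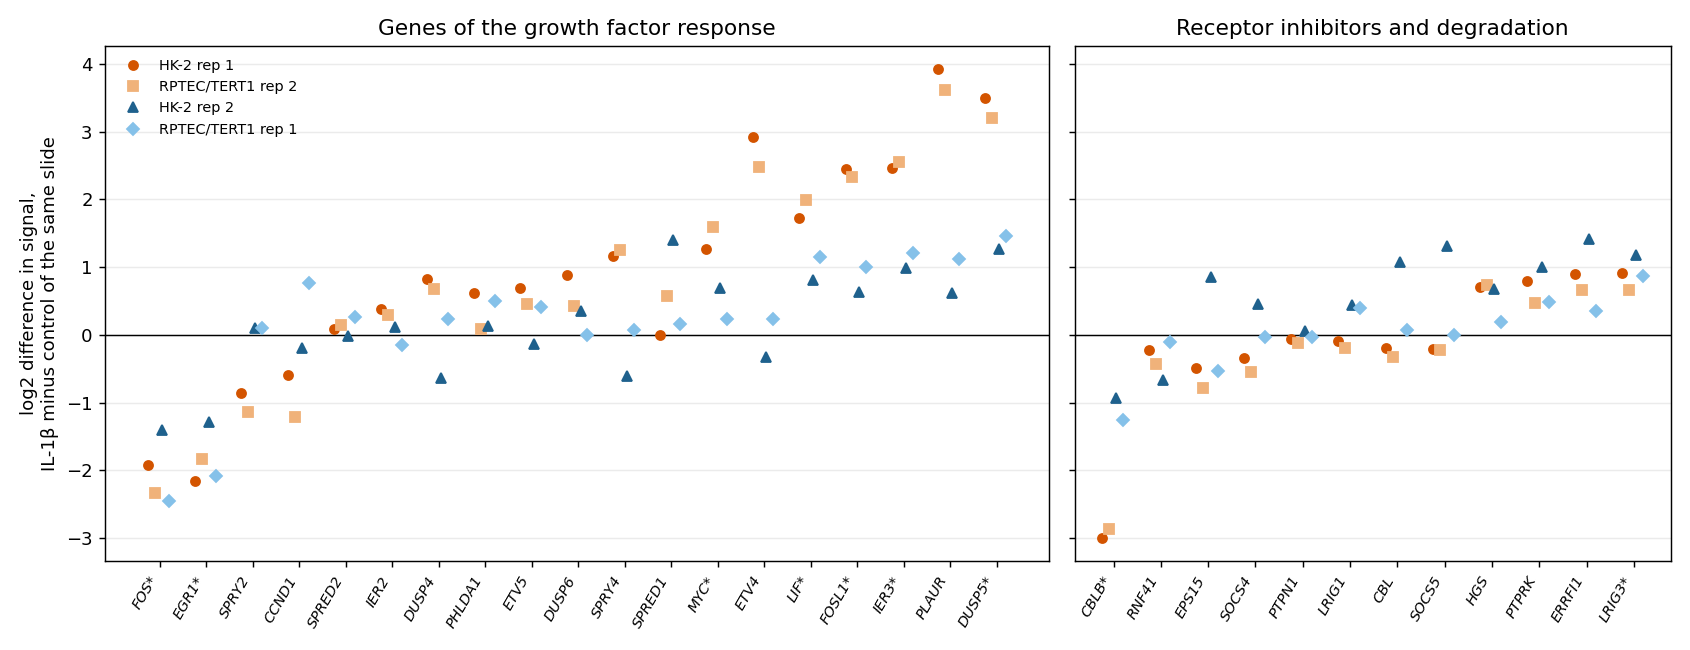
Log2 difference between the IL-1β array and the control of its slide (vertical axis) for 19 growth factor response genes (left) and 12 genes of receptor inhibition and degradation (right), ordered by the fitted fold change, with 1 symbol for each slide and an asterisk for genes past an adjusted p of 0.05. DUSP5, IER3, FOSL1, LIF and MYC lie above 0 and EGR1, FOS and CBLB below 0 on all 4 slides, while the points of FOS come from arrays on which it was mostly not above background.

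The genes whose 8 within-slide differences (4 with IL-1β and 4 with Empa) were most like those of ERBB2, BTC and HBEGF were sought among the 12606 genes whose tested probe was well above background on all 12 arrays. For ERBB2 they were JAK3, FDXR and SERGEF (Pearson's r = 0.992, 0.991 and 0.990), for BTC ETNK2, PGAP3 and IFT22 (r = 0.994, 0.988 and 0.987), and for HBEGF MAFK, HSBP1 and LINC00152 (r = 0.970, 0.966 and 0.964). Each r is over 8 differences that share the control of their slide 2 by 2, and is a description of likeness. JAK3 had log2 differences with IL-1β of -2.22 and -2.17 in pair A and of -0.79 and -0.93 in pair B, and MAFK was higher by 1.06 and 0.99 in pair B and differed by 0.05 and -0.16 in pair A.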

How the data were processed

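Signals of 12 arrays were used, which the authors read with Agilent Feature Extraction 9.5.3.1. The deposited intensity of a spot had its background subtracted and spatial trends removed by that software, with no step between arrays. A second table the authors deposited, of quantile-normalized log2 values, served as an alternative. Titles gave line, treatment and replicate, while another label names HK-2 for all 12 arrays.

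Left out were 1377 control spots per array and outlier spots (1.06% to 1.61%), and repeated spots were averaged. Signals were scaled to each array's 75th percentile (295.3 to 735.2 signal units), floored at 1 signal unit at a common level of 408.6 and log2-transformed. Of the probes of an array, 52.7% to 63.1% were well above background (most spots marked so by the software), and 7 to 215 were saturated, none of them of a member. The number of arrays limits the precision, and p-values measure the spread between these arrays.

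The tests were made with limma 3.58.1 (R 4.3.3) on 1 probe per gene, the brightest of those well above background on at least 2 arrays (17843 genes), with the slide as a block and 1 effect per treatment (6 residual degrees of freedom), adjusted over all genes by Benjamini-Hochberg. The slide is the replicate number within a line. Deviations of a slide's arrays from their group means correlated with r from 0.703 to 0.892 (with 2 slides in a line, both give the same r). The 2 slides of a label lie in different pairs, so these deviations carry the difference between pairs A and B. The r therefore cannot show that the replicate numbers pair the cultures. Alternatives were other normalizations (quantile, and normexp with an offset of 50 before it), floors, filters, blocks, subsets of arrays and the methods' t-test. Where 1 side was not well above background a bound was computed.

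Named were all members, the IL-1β response genes, pathway genes past the threshold (the 10 largest changes of a comparison, and all of a list with 4 or fewer) and the 3 genes most like each of 3 members. The members and lists were chosen with earlier results of these data known, and the fits without a slide pair after seeing the data. Simulated data with known changes were used to test the fit. Promoters are RefSeq's on GRCh38.p14. Figures were drawn with matplotlib 3.10.9.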

Additional observations from a re-analysis of the deposited data

Results flagged for a closer look

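At its tested probe EGFR was higher with IL-1β than control on both slides labelled HK-2 and lower on both labelled RPTEC/TERT1. The mean log2 differences differed by -0.36 (RPTEC/TERT1 minus HK-2). The difference did not pass a test of the interaction (SE 0.67, unadjusted p = 0.604 and adjusted p = 1.00 from limma), and the within-slide differences were between -0.23 and 0.25. At the EGFR probe for NM_201283 the split by label was not seen. Its differences with IL-1β were 0.04 and -0.02 for HK-2 replicates 1 and 2, and -0.14 and -0.08 for those of RPTEC/TERT1. With 2 arrays in a group, no group was large enough to test for a single outlying array.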

How the results depend on the processing

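With IL-1β, 1756 genes passed the threshold, and 1646 to 1961 did under 7 other normalizations, floors, filters and spot rules, 2034 with every probe tested and 1397 with no filter. The count was 4 without the replicate block, 0 with the scan as the block, 0 for either line label or either replicate number alone, 36 by the methods' t-test, 946 without pair A and 1896 without pair B. Leaving out 1 array gave 623 to 2663, and it moved the count most without HK-2 control replicate 1 (623), RPTEC/TERT1 control replicate 2 (655), RPTEC/TERT1 IL-1β replicate 2 (658), HK-2 IL-1β replicate 1 (820), HK-2 control replicate 2 (832), RPTEC/TERT1 control replicate 1 (1099) and HK-2 Empa replicate 1 (2663). With Empa the count of 1 was 0 in 12 of the other settings, without the replicate block and for each line label alone among them, and without pair B, 2 by the methods' t-test, 3 without pair A and 0 to 2 with 1 array left out. For IL-1β against Empa (2017) it was 10 without the replicate block, 11 by the t-test, 0 with the scan as the block and for each line label or replicate number alone, 792 without pair A, 2945 without pair B and 629 to 2370 with 1 array left out, falling most without RPTEC/TERT1 Empa replicate 2 (629), RPTEC/TERT1 IL-1β replicate 2 (726), HK-2 IL-1β replicate 1 (830), HK-2 Empa replicate 2 (1052) and RPTEC/TERT1 Empa replicate 1 (1223). The differences between the labelled lines gave 0 calls in every fit made. The cause of these moves was not tested. Fits of a line label, a replicate number or a slide pair alone all had 2 residual degrees of freedom. The fit without the block has no term for the slide.

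Among the other settings the fall of ERBB2 with IL-1β kept its call in 9 and lost it in 9, that of BTC kept it in 5 and lost it in 13, and neither changed direction. The IL-1β values of CBLB, LRIG3, DUSP5, EGR1, FOS, FOSL1, IER3, LIF and MYC kept their direction in every setting run. The values that changed sign were each of a comparison in which that member did not pass the threshold over the 4 slides. For IL-1β, EGFR (log2) was 0.034 with quantile normalization, 0.0088 with normexp before it, 0.14 for the label HK-2 alone, 0.010 for replicate number 1 and -0.26 to 0.11 with arrays left out. TGFA was 0.21 for the label RPTEC/TERT1 alone, -0.44 without pair A and 0.24 without pair B, and AREG was -0.31 and 1.82. EREG was 0.54 with normexp, 0.58 in the authors' table, 0.28 with a floor of 5 signal units, 1.47 without pair A and -3.17 without pair B, the last between signals below background. For Empa, ERBB2 was -0.013 with quantile normalization, -0.016 with normexp, -0.034 in the authors' table, -0.0076 for the label RPTEC/TERT1, -0.15 for replicate number 2 and -0.16 to 0.19 with arrays left out. TGFA was 0.0036 for the label RPTEC/TERT1, and HBEGF was -0.10 for replicate number 1. Without pair A and without pair B, respectively, the Empa values were -0.36 and 0.98 for EGFR, 0.94 and -0.39 for HBEGF, -0.26 and 0.54 for AREG and 0.049 and -3.17 for EREG. For IL-1β against Empa they were 0.26 and -0.97 for EGFR, -0.10 and 0.59 for TGFA and -0.049 and 1.28 for AREG, and ERBB3 was 0.034 for the label RPTEC/TERT1. Signals near background limit EGF, EREG in pair A, FOS and the second probes of ERBB2 and TGFA, and 2 arrays in a group limit every test.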
